A study of Mus musculus with 20 samples.

Results

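Livers of mice without the enzyme medium-chain acyl-CoA dehydrogenase, labelled MCAD-/-, were compared with livers of wild type mice that had been injected with vehicle and then fasted for 12 h. The comparison used the 5 MCAD-/- arrays and the 5 wild type control arrays with vehicle, 10 of the 20 arrays of the series, with 1 mouse on each array. It covered every gene that could be measured, 8774 of the 18193 genes with a probe set of their own. All 20 mice were males aged 50 to 60 days whose background was a BL6/SV129 mix, and the series description calls the 5 mice of a group biological replicates. The other 10 mice, 5 of each genotype, had received LPS (lipopolysaccharide, a bacterial cell wall component) at 100 µg per 20 g body weight before the same fast. Below, they set the genotype difference in other mice beside the one with vehicle. Their arrays also entered the choice of probe sets and tested genes, and the estimate of spread behind every standard error and adjusted p. How the Acadm allele was made and whether wild type and MCAD-/- mice were littermates is not given in the labels. The series title places the work in hepatic carbohydrate management in MCAD deficiency.

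Levels are in the linear intensity units of the deposited table. A group's level is the geometric mean of its 5 mice, and a difference is MCAD-/- minus wild type on the log2 scale, ± its standard error from a limma model. A gene passed where its Benjamini-Hochberg adjusted p over the 8774 genes was under 0.05. Levels under 16 units lie near the floor of the method. Where all 5 mice of the dimmer group lay under it, the fold is given as a lower bound against 16 units. Because probe sets differ in brightness, levels are compared between mice and never between genes.

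MCAD, the product of Acadm, takes the first step of mitochondrial beta-oxidation for medium-chain acyl-CoAs, which long-chain fatty acids pass through as they are shortened. In the fasted liver, beta-oxidation supplies the ATP and reducing power that gluconeogenesis uses and the acetyl-CoA from which ketone bodies are made. Fasting is read by glucagon, glucocorticoids and fatty acids themselves, through regulators such as CREB, its coactivators, PGC-1alpha and PPARalpha. Fatty acid synthesis, driven by insulin through SREBP-1c, is normally low in that state.

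4 promoters are shown because each belongs to a gene that differed between the genotypes and to a pathway with a well-known promoter element. Each is the 250 bases before the RefSeq start site in assembly GRCm38.p6, in lower case with matches to the element in capitals. Fasn encodes fatty acid synthase and lies on chr11:120824548-120824797, minus strand. Idi1, of cholesterol synthesis, lies on chr13:8885356-8885605, plus strand. In both, the capitals mark CCAAT or its reverse complement, the letters bound by the factor NF-Y, a partner of the SREBPs.
Fasn: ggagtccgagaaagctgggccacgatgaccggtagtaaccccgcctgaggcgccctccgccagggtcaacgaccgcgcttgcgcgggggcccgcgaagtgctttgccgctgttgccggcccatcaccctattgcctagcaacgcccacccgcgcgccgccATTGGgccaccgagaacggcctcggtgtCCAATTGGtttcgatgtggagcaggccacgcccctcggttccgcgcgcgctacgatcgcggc
Idi1: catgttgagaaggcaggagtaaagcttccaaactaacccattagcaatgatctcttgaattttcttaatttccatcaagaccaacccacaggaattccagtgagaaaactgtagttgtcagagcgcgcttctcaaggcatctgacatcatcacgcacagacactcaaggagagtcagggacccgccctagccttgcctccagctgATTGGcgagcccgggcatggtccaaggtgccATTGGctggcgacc
Ppargc1a encodes PGC-1alpha and lies on chr5:51567726-51567975, minus strand, and its capitals mark TGACGT or its reverse complement, the core of the element bound by CREB. Igtp encodes an interferon-inducible GTPase and lies on chr11:58199306-58199555, plus strand, and its capitals mark AGTTTC or its reverse complement, letters with which the interferon-stimulated response element begins.
Ppargc1a: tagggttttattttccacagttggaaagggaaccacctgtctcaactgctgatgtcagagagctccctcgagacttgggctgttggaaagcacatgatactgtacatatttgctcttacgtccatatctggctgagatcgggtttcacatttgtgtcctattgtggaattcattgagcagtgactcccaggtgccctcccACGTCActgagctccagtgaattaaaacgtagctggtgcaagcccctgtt
Igtp: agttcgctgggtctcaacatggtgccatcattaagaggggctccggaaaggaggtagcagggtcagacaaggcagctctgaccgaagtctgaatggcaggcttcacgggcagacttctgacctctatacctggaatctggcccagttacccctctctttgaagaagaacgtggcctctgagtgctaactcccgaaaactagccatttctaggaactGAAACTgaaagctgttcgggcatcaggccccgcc
Fasn held 3 matches, 2 of them inverted and 2 overlapping on opposite strands, and Idi1 held 2. In Ppargc1a the inverted match lay 44 bases before the start site, and in Igtp 28 bases. Over 27025 promoters of this length, on either strand, CCAAT was found in 34.5%, TGACGT in 6.56% and AGTTTC in 13.7%. A match describes the letters only.

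Of the 8774 genes, 1422 passed (16.2%): 861 were higher in MCAD-/- (9.81%) and 561 were lower (6.39%). The difference was at least 2-fold for 258 of the higher and 174 of the lower genes, and under 1.5-fold for 459 in all. Over all tested genes the median difference was 0.04, with quartiles at -0.15 and 0.23, and the median standard error was 0.16. The 5 wild type mice and the 5 MCAD-/- mice did not overlap for 1210 of the 8774 genes (13.8%), which include 922 of the 1422 that passed. Of the 1422, 565 also passed in the same direction between the genotypes in the LPS mice and 28 passed in the opposite direction, and the difference between the 2 genotype contrasts itself passed for 197. With 1 mouse left out at a time, between 1045 and 1397 genes passed. RNA from 1 wild type vehicle mouse, replicate 3, gave a 3' to 5' log2 ratio of the actin control of 3.18, against 1.69 to 2.13 in the other wild type vehicle mice and 1.69 to 2.34 in the MCAD-/- mice, and the replicates are otherwise described only where a result turns on 1 of them.

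**Figure D1:**
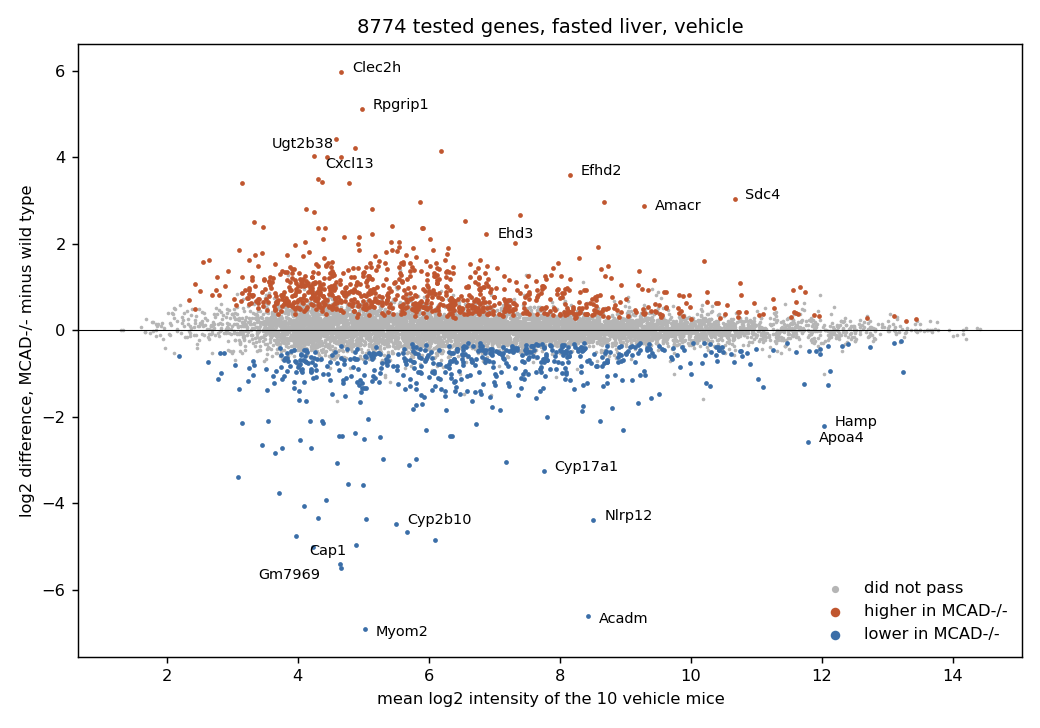
Difference between MCAD-/- and wild type (log2, vertical axis) against the mean log2 intensity of the 10 vehicle mice (horizontal axis) for the 8774 tested genes. Grey points did not pass, and 861 coloured points lie above and 561 below zero, most of them within 1 log2 unit of it, with Acadm and Myom2 lowest and Clec2h highest.

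Hepatocyte and oxidative phosphorylation genes were nearly level. Alb, which encodes albumin, had 20937 units in wild type and 21573 in MCAD-/- (0.04 ± 0.07, adjusted p = 0.738). Of 19 hepatocyte identity genes tested, 1 was higher, Apoc3 (0.25 ± 0.08, adjusted p = 0.032), and none was lower, with a median of 0.02. Of 41 subunits of the respiratory chain and ATP synthase, 1 was higher, Cox6a1 of complex IV (0.28 ± 0.08, adjusted p = 0.0146), and the median was 0.02. Apoc3 lost its call without any 1 of 6 mice (adjusted p up to 0.0779).

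Acadm, the targeted gene, was measured at 3423, 3106, 4022, 3283 and 3271 units in wild type replicates 1 to 5 and at 37.48, 34.33, 9.027, 80.2 and 56.47 units in MCAD-/-. All 5 MCAD-/- mice lay far below all 5 wild type mice, so the labels and the transcript go together. The level was 97.3-fold lower (-6.60 ± 0.57, adjusted p = 4.05e-08), and an exact two-sided permutation test gave p = 0.00794, the smallest that 5 against 5 allows. 4 of the 5 MCAD-/- mice remained above 16 units. The labels do not say which part of the gene was removed, so what the remaining signal comes from was not tested.

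The enzymes that share MCAD's reaction at other chain lengths did not pass. Acadvl, Acadl and Acads encode the acyl-CoA dehydrogenases for very long, long and short chains, and their differences were -0.03 ± 0.08, -0.10 ± 0.11 and -0.09 ± 0.17 (adjusted p = 0.865, 0.619 and 0.781). Acad9, whose product acts mainly in assembly of respiratory complex I, ranged from 115.8 to 142.6 units in wild type and from 43.8 to 76.91 in MCAD-/-. The groups did not overlap, and the level fell 2.3-fold (-1.20 ± 0.17, adjusted p = 3.35e-05), although the call was made by 1 of its 2 tested probe sets. Acad10, a less well characterised member of the family, fell by 0.96 ± 0.28 (adjusted p = 0.0244), a call lost without any 1 of 5 mice (adjusted p up to 0.0718). In all, 3 of 12 acyl-CoA dehydrogenases and oxidases were lower, Acadm among them, and 1 was higher, the peroxisomal oxidase Acox2 of bile acid synthesis (0.42 ± 0.11, adjusted p = 0.00976).

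Mitochondrial beta-oxidation as a whole moved little. Of 19 genes tested, Acad9 and Decr1 were lower and none was higher, with a median of -0.10. Decr1, the reductase needed for unsaturated fatty acids, went from 1514 to 1073 units (-0.50 ± 0.13, adjusted p = 0.0103). Cpt1a and Cpt2, of the carnitine shuttle that admits long-chain fatty acids, differed by -0.25 ± 0.17 and -0.14 ± 0.13 (adjusted p = 0.346 and 0.509). Of 17 genes that activate, hydrolyse or conjugate medium-chain acyl groups, 1 passed in each direction. These were the thioesterase Acot9, under or near the floor in both groups (0.80 ± 0.19, adjusted p = 0.00664, no fold given), and Slc27a5, a bile acid and fatty acid CoA ligase (-0.38 ± 0.10, adjusted p = 0.0161). The Slc27a5 call was lost without MCAD-/- replicate 1 (adjusted p = 0.0561).

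Among the oxidation genes tested, Amacr rose most. It encodes the racemase that prepares branched-chain fatty acids and bile acid precursors for peroxisomal oxidation, and was measured at 233.7, 255.5, 184.8, 215.6 and 274.6 units in wild type and 1448, 1732, 1980, 1579 and 1661 in MCAD-/-. The groups were far apart with little spread in either, a 7.24-fold rise (2.86 ± 0.15, adjusted p = 1.96e-11). In the LPS mice the same difference was 2.73. Of 20 peroxisomal and microsomal oxidation genes, 3 were higher and none was lower: Amacr, Acox2 and the thiolase Acaa1a (0.47 ± 0.13, adjusted p = 0.0161), whose call was lost with its probe sets averaged (adjusted p = 0.063). Ehhadh and Cyp4a14, of peroxisomal beta-oxidation and omega-oxidation, differed by 0.06 ± 0.20 and -0.24 ± 0.69 (adjusted p = 0.895 and 0.869).

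Transcripts under PPARalpha, the receptor that fatty acids activate in fasting, did not move together. Of 21 PPARalpha targets and lipid droplet genes, 3 were higher and 1 was lower, with a median of 0.01. Vnn1, a pantetheinase and a classical target, stood at 1600, 999.4, 1163, 953.7 and 1181 units in wild type and 335.5, 273.1, 754.3, 416.1 and 312.4 in MCAD-/-. Every MCAD-/- mouse was below every wild type mouse, with replicate 3 the highest of them, and the level fell 2.98-fold (-1.57 ± 0.30, adjusted p = 0.000966). Angptl4, an inhibitor of lipoprotein lipase, Plin2, a lipid droplet coat protein, and Acot1, a cytosolic thioesterase, did not pass (0.31 ± 0.16, -0.38 ± 0.15 and -0.25 ± 0.38, adjusted p = 0.209, 0.0843 and 0.73). Pdk4, which switches off pyruvate dehydrogenase, and Fgf21, a fasting hormone, were close to the floor and did not pass (0.71 ± 0.61 and 0.04 ± 0.35, adjusted p = 0.49 and 0.962). Cidec, which enlarges lipid droplets, averaged under the floor in both groups.

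Those that rose were Fabp4, Plin4 and Ppara itself. Fabp4, a fatty acid binding protein of fat, macrophages and endothelium, stood at 32.05, 10.4, 61.5, 15.15 and 13.74 units in wild type and 143, 71.19, 86.07, 76.41 and 73.09 in MCAD-/-, a 4.09-fold rise (2.03 ± 0.34, adjusted p = 0.000305). Wild type replicates 1 and 3 were the highest of their group, as they were for endothelial markers, of which 23 of 26 rose, as given below. The part of those cells in the result was not tested. Plin4, another droplet coat protein, was at least 1.63-fold higher (1.74 ± 0.45, adjusted p = 0.0106). Ppara rose by 0.58 ± 0.18 (adjusted p = 0.0313) on its brightest probe set and was lower, by 0.42, when its probe sets were averaged, so its direction depends on the probe set. The Ppara call was also lost without any 1 of 5 mice (adjusted p up to 0.0841).

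No gene of ketone body synthesis and transport passed among the 8 tested, and not every gene of the pathway was analysed here. Their median was -0.27, and 4 of the 8 were lower in the LPS mice. Bdh1, which makes beta-hydroxybutyrate, went from 1788 to 1228 units (-0.54 ± 0.21, adjusted p = 0.0812) and passed without wild type replicate 3 or without MCAD-/- replicate 3.

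Among the regulators that carry the fasting signal, PGC-1alpha stood out. Ppargc1a was measured at 42.36, 35.67, 54.24, 47.13 and 35.8 units in wild type and at 216.3, 110.6, 116.1, 238.8 and 90.59 in MCAD-/-. The lowest MCAD-/- mouse was above the highest wild type mouse, and all 5 probe sets of the gene rose. The rise was 3.37-fold (1.75 ± 0.33, adjusted p = 0.000867), and in the LPS mice the difference was 1.83. Ppargc1b, which encodes the related coactivator PGC-1beta, ranged from 59.26 to 98.89 units in wild type and from 106.8 to 269.4 in MCAD-/-, a 2.27-fold rise (1.18 ± 0.24, adjusted p = 0.00175). With LPS its difference was -0.36, at levels of 17.4 and 13.6 units, and the difference between the contrasts passed (adjusted p = 0.0128).

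Of 30 hormonal regulators and effectors of fasting, 5 were higher (16.7%, beside 9.81% of all genes) and none was lower. Without MCAD-/- replicate 5, 8 were higher. The median was 0.28, and 24 of 30 differences were above zero. Per1, a clock gene that glucocorticoids and CREB induce, rose from 25.6 to 49.3 units (0.95 ± 0.18, adjusted p = 0.00101), and its lowest value, 16.7, was in wild type replicate 3. Crtc2, the CREB coactivator, rose from 14.9 to 26.9 units (0.85 ± 0.19, adjusted p = 0.0031), with wild type at the floor. The fifth was Sirt1, a deacetylase that acts on PGC-1alpha (0.71, adjusted p = 0.00502). Igfbp1, which insulin represses, went from 2250 to 3418 units and did not pass (0.60 ± 0.22, adjusted p = 0.0659), with calls gained without wild type replicate 1 or MCAD-/- replicate 2. Igf1, a growth hormone target, differed by 0.24 ± 0.13 (adjusted p = 0.238). Among the 23 members of this list with a promoter in the RefSeq table, the one with a TGACGT match was Ppargc1a.

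The enzymes of gluconeogenesis themselves were divided. Of 21 tested, 3 were higher and 1 was lower, with a median of 0. G6pc and Pck1, the classical CREB and PGC-1alpha targets, did not pass. G6pc stood at 1333, 2233, 1959, 2227 and 1902 units in wild type and 3399, 2205, 3351, 3020 and 1837 in MCAD-/-, so that 3 of the 5 MCAD-/- mice were above all wild type mice and the other 2 were within the wild type range (0.50 ± 0.59, adjusted p = 0.632). Pck1 ranged from 6905 to 9410 and from 8999 to 11066 units (0.30 ± 0.13, adjusted p = 0.128). Fbp1, fructose-1,6-bisphosphatase, rose 1.25-fold (0.32 ± 0.08, adjusted p = 0.0123), and Pcx, pyruvate carboxylase at the entry of the pathway, fell 1.42-fold (-0.51 ± 0.10, adjusted p = 0.00183). Pck2, the mitochondrial carboxykinase, was at least 1.18-fold higher (0.63 ± 0.16, adjusted p = 0.0098). The aspartate aminotransferase Got1 went from 2530 to 4641 units (0.88 ± 0.26, adjusted p = 0.025), a call lost without wild type replicate 3 or MCAD-/- replicates 1 or 4 (adjusted p up to 0.0701).

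Glycogen and glucose handling changed in single genes. Stbd1, which tethers glycogen to membranes, rose from 439 to 853 units with no overlap (0.96 ± 0.22, adjusted p = 0.00418). Slc2a1, the glucose transporter GLUT1, ranged from 110.7 to 155.7 units in wild type and from 224.4 to 256.7 in MCAD-/-, a 1.76-fold rise by all 3 of its probe sets (0.82 ± 0.16, adjusted p = 0.00151). Aldoa, an aldolase, rose 1.51-fold (0.60 ± 0.16, adjusted p = 0.015). Phkg2, a phosphorylase kinase subunit, rose by 0.39 ± 0.11 (adjusted p = 0.0185) and Pygl, liver glycogen phosphorylase, fell by 0.50 ± 0.16 (adjusted p = 0.0329). Gys2 and Slc2a2, liver glycogen synthase and the glucose transporter GLUT2, did not pass (0.29 ± 0.20 and -0.44 ± 0.23, adjusted p = 0.369 and 0.222). Over 16 glycogen genes, 2 were higher and 1 was lower, and over 14 glycolytic genes and ChREBP targets 2 passed in each direction. The glycolytic regulator Pfkfb3 and the fructose pathway kinase Tkfc fell by 1.37 ± 0.41 and 1.11 ± 0.36 (adjusted p = 0.0269 and 0.0414). Pklr, liver pyruvate kinase, did not pass (-0.73 ± 0.34, adjusted p = 0.155), but was lower and passed with its probe sets averaged (adjusted p = 0.0167). The calls for Pygl, Pfkfb3, Tkfc and Phkg2 were lost without any 1 of 7, 6, 8 and 2 mice (adjusted p up to 0.0927, 0.0717, 0.0994 and 0.0522).

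Beyond pyruvate, 3 of 27 genes that encode pyruvate dehydrogenase or citric acid cycle enzymes passed. Fh1, fumarase, rose by 0.35 ± 0.08 (adjusted p = 0.00631), Dlat, the E2 subunit of pyruvate dehydrogenase, rose by 0.68 ± 0.20 (adjusted p = 0.0213), and Pdhb, its E1 beta subunit, fell by 0.42 ± 0.11 (adjusted p = 0.0148). The Dlat call was lost without MCAD-/- replicate 1 (adjusted p = 0.0557) and with its probe sets averaged (adjusted p = 0.113). The median of the list was 0.04, equal to that of all genes.

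**Figure D2:**
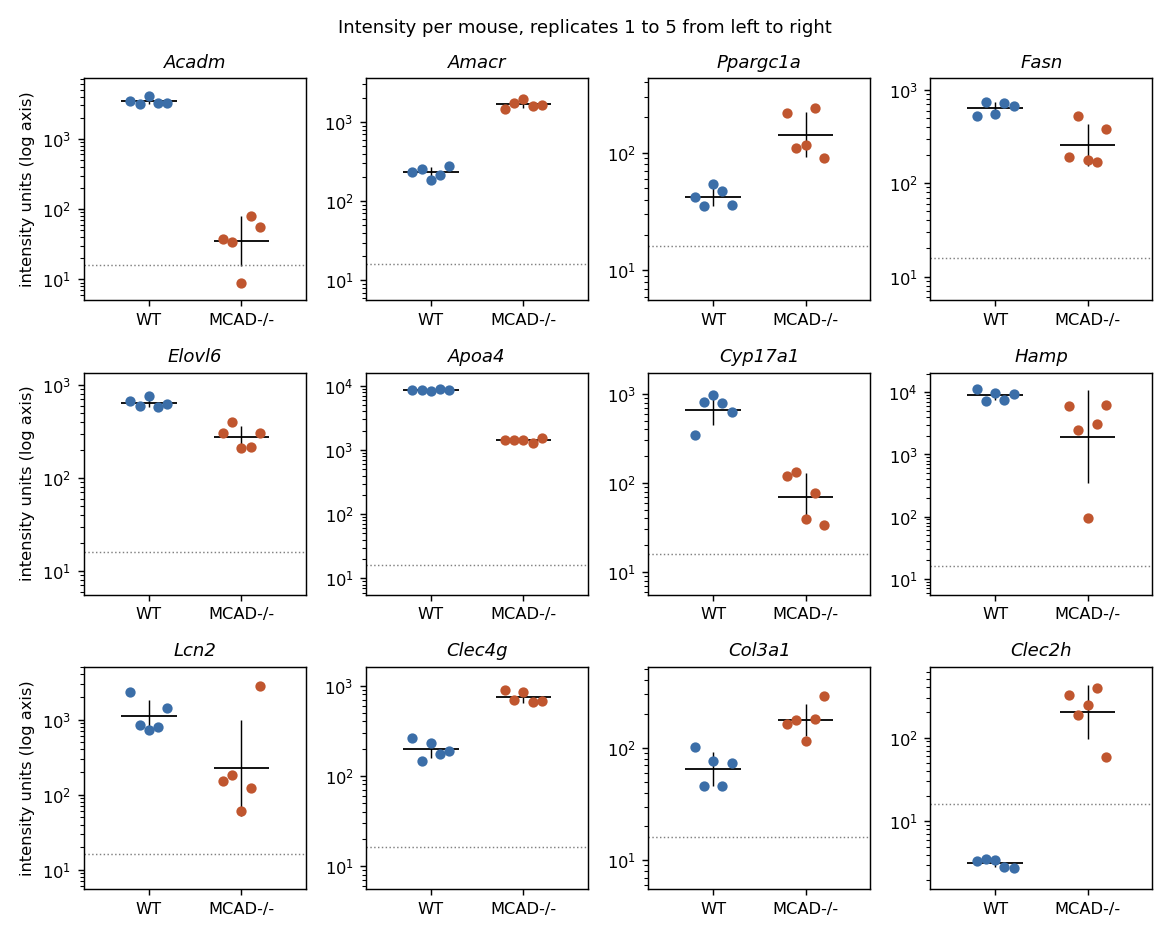
Intensity of 12 genes in each vehicle mouse on a log axis, wild type in blue and MCAD-/- in orange, with the group mean (bar) and SD (vertical line) of log2 values and a dotted line at 16 units. Acadm, Amacr, Apoa4 and Clec2h separate the genotypes with wide gaps, Hamp is lowest in MCAD-/- replicate 3 at 94.64 units, and Lcn2 is highest in MCAD-/- replicate 5 at 2794 units.

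Fatty acid synthesis had more lower than higher calls. Of 25 genes of fatty acid and triglyceride synthesis, 8 were lower (32.0%, beside 6.39% of all genes) and 2 were higher (8.0%, beside 9.81%). The median was -0.07 beside 0.04 for all genes, and 15 did not pass. Fasn was measured at 530.5, 735.6, 545.6, 716.7 and 675.8 units in wild type and 192.2, 520.8, 177.1, 169.8 and 380.6 in MCAD-/-. MCAD-/- replicate 2 lay just under the wild type range and the other 4 well under it, and the level fell 2.46-fold (-1.30 ± 0.28, adjusted p = 0.00327). Elovl6, which elongates palmitate, stood at 675.9, 587.8, 754.5, 579.4 and 626.5 units in wild type and 301.6, 395.8, 209.9, 212.8 and 302.5 in MCAD-/-, a 2.32-fold fall without overlap (-1.22 ± 0.26, adjusted p = 0.00243). MCAD-/- replicate 2 was again the highest of its group.

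Acsl3, an acyl-CoA synthetase of lipid droplets and lipid synthesis, fell 3.35-fold, from 102 to 30.4 units (-1.74 ± 0.23, adjusted p = 2.06e-05), and in the LPS mice its difference was -0.20, with the difference between the contrasts past the threshold (adjusted p = 0.0105). Acaca, acetyl-CoA carboxylase 1, fell 2.01-fold (-1.01 ± 0.24, adjusted p = 0.00691), a call not made when its probe sets were averaged (adjusted p = 0.112). Me1, malic enzyme, which makes NADPH for the pathway, fell 1.93-fold (-0.95 ± 0.24, adjusted p = 0.00957). Scd1, the stearoyl-CoA desaturase, and Srebf1, which encodes SREBP-1, did not pass (0.20 ± 0.27 and -0.45 ± 0.29, adjusted p = 0.69 and 0.321). Those that rose were Lpin2, a phosphatidate phosphatase (0.81 ± 0.21, adjusted p = 0.0103), and Dgat1, which makes triglyceride (0.43 ± 0.14, adjusted p = 0.0457), the latter lost without any 1 of 8 mice (adjusted p up to 0.116) and with probe sets averaged (adjusted p = 0.529). CCAAT was found in the promoters of 10 of the 19 list members in the RefSeq table and in 5 of the 8 that fell, Fasn among them, beside 34.5% of all promoters.

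Cholesterol synthesis had fewer calls, all lower. Of 22 genes, 3 were lower (13.6%, beside 6.39% of all genes) and none was higher, with a median of -0.41 and 19 of 22 differences below zero. Cyp51, the lanosterol demethylase, stood at 225.5, 460.6, 520.2, 471 and 399.9 units in wild type and 180.1, 140.5, 283, 129 and 219.4 in MCAD-/-, where wild type replicate 1 lay within the MCAD-/- range (-1.13 ± 0.28, adjusted p = 0.00949). Idi1, an isomerase of the pathway, stood at 187.4 units in wild type replicate 1 and between 519.6 and 705.2 in the other 4, against a group level of 187 in MCAD-/- (-1.36 ± 0.38, adjusted p = 0.0201). Msmo1, a sterol methyl oxidase, fell by 1.05 ± 0.34 (adjusted p = 0.0376). The same wild type mouse was therefore at MCAD-/- levels for these genes. The list had 7 lower members without wild type replicate 1 and 1 without wild type replicates 2 or 4 or MCAD-/- replicate 4, the Idi1 call was lost without wild type replicates 2 or 4 or MCAD-/- replicate 4 (adjusted p up to 0.0566), and the Msmo1 call without any 1 of 8 mice (adjusted p up to 0.102). In the LPS mice the list's median was 0.20. CCAAT was found in 16 of the 18 list members with a promoter in the table, the 3 that fell included.

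Among apolipoproteins, Apoa4 fell most. It was measured at 8591, 8632, 8419, 8944 and 8649 units in wild type and 1430, 1447, 1452, 1292 and 1566 in MCAD-/-, with very little spread in either group. The fall was 6.03-fold by both of its probe sets (-2.59 ± 0.20, adjusted p = 5.88e-09), and the difference in the LPS mice was -2.78. APOA4 is a component of chylomicrons and HDL whose liver transcript follows fat intake and hepatic fat in mice. Apof, which modulates cholesteryl ester transfer, fell 1.31-fold (-0.39 ± 0.10, adjusted p = 0.00767), and of 21 genes of this list the 2 named fell and Apoc3 rose. Bile acid synthesis and transport had 1 higher gene of 25, Amacr, and 2 lower, Slc27a5 and the steroid dehydrogenase Hsd3b7 (-0.48 ± 0.15, adjusted p = 0.0408), the last lost without any 1 of 8 mice (adjusted p up to 0.112). Cyp7a1 and Cyp8b1, which set bile acid output and composition, did not pass (0.23 ± 0.54 and 0.12 ± 0.42, adjusted p = 0.823 and 0.891).

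Calls in amino acid and one-carbon metabolism were in the higher direction only, and for amino acid genes their share was little above that of all genes. Of 36 genes of amino acid catabolism and the urea cycle, 5 were higher (13.9%, beside 9.81% of all genes), with a median of 0.12. Over the 34 above the floor in both groups, 3 were higher and none was lower, with a median of 0.10. The other higher genes, Ass1 and Bcat2, averaged under the floor in wild type. Without MCAD-/- replicates 1 or 4, 3 were higher. Of 18 genes of methionine and one-carbon metabolism, 4 were higher (22.2%), with a median of 0.13. Without wild type replicates 2 or 4 or MCAD-/- replicates 1 or 4, 2 were higher. Asns, asparagine synthetase and a target of the stress factor ATF4, stood at 39.75, 33.66, 10.18, 29.95 and 38.61 units in wild type and 59.44, 24.97, 275, 127.5 and 127.2 in MCAD-/-. It varied widely among MCAD-/- mice, with replicate 2 within the wild type range (1.74 ± 0.46, adjusted p = 0.0124), and the call was lost when the 10 vehicle arrays were fitted alone (adjusted p = 0.0603). Nnmt, which consumes S-adenosylmethionine to methylate nicotinamide, rose from 2316 to 4600 units (0.99 ± 0.18, adjusted p = 0.000692). Mtrr, which restores methionine synthase, rose 1.95-fold (0.96 ± 0.15, adjusted p = 0.000173).

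Ass1, argininosuccinate synthase, rose from 15.1 to 36.6 units (1.28 ± 0.28, adjusted p = 0.00299). Bcat2, the mitochondrial branched-chain aminotransferase, was at least 1.42-fold higher (1.20 ± 0.31, adjusted p = 0.0115). Cth and Ahcy, of cysteine synthesis and S-adenosylhomocysteine removal, rose by 0.93 ± 0.28 and 0.22 ± 0.07 (adjusted p = 0.0257 and 0.0374), calls lost without any 1 of 4 and 7 mice (adjusted p up to 0.0726 and 0.0884).

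Genes of the endoplasmic reticulum had lower calls only, and those of the integrated stress response had higher calls only. Of 24 endoplasmic reticulum chaperones and sensors, 4 were lower (16.7%, beside 6.39% of all genes) and none was higher. The median was -0.20, and 20 of 24 differences were below zero. Hyou1, a chaperone of the HSP70 family, stood at 149.9, 174.3, 148.5, 167.7 and 182.6 units in wild type and 70.83, 106.7, 98.87, 83.07 and 144.4 in MCAD-/-, without overlap but with replicate 5 close to wild type (-0.75 ± 0.16, adjusted p = 0.0036). Pdia6, a disulphide isomerase, and Manf, a secreted stress protein, fell 1.53-fold and 1.48-fold (-0.62 ± 0.15 and -0.56 ± 0.15, adjusted p = 0.00671 and 0.0118). Ern1, the sensor IRE1alpha, fell by 0.42 ± 0.14 (adjusted p = 0.0469), a call lost without any 1 of 6 mice (adjusted p up to 0.129). Of 21 genes of the integrated stress response, 5 were higher (23.8%, beside 9.81% of all genes) and none was lower, with a median of 0.17. They were Asns, Stbd1, Pck2, Cth and Ppp1r15a, whose product returns translation to normal (0.91 ± 0.24, adjusted p = 0.0114).

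**Figure D3:**
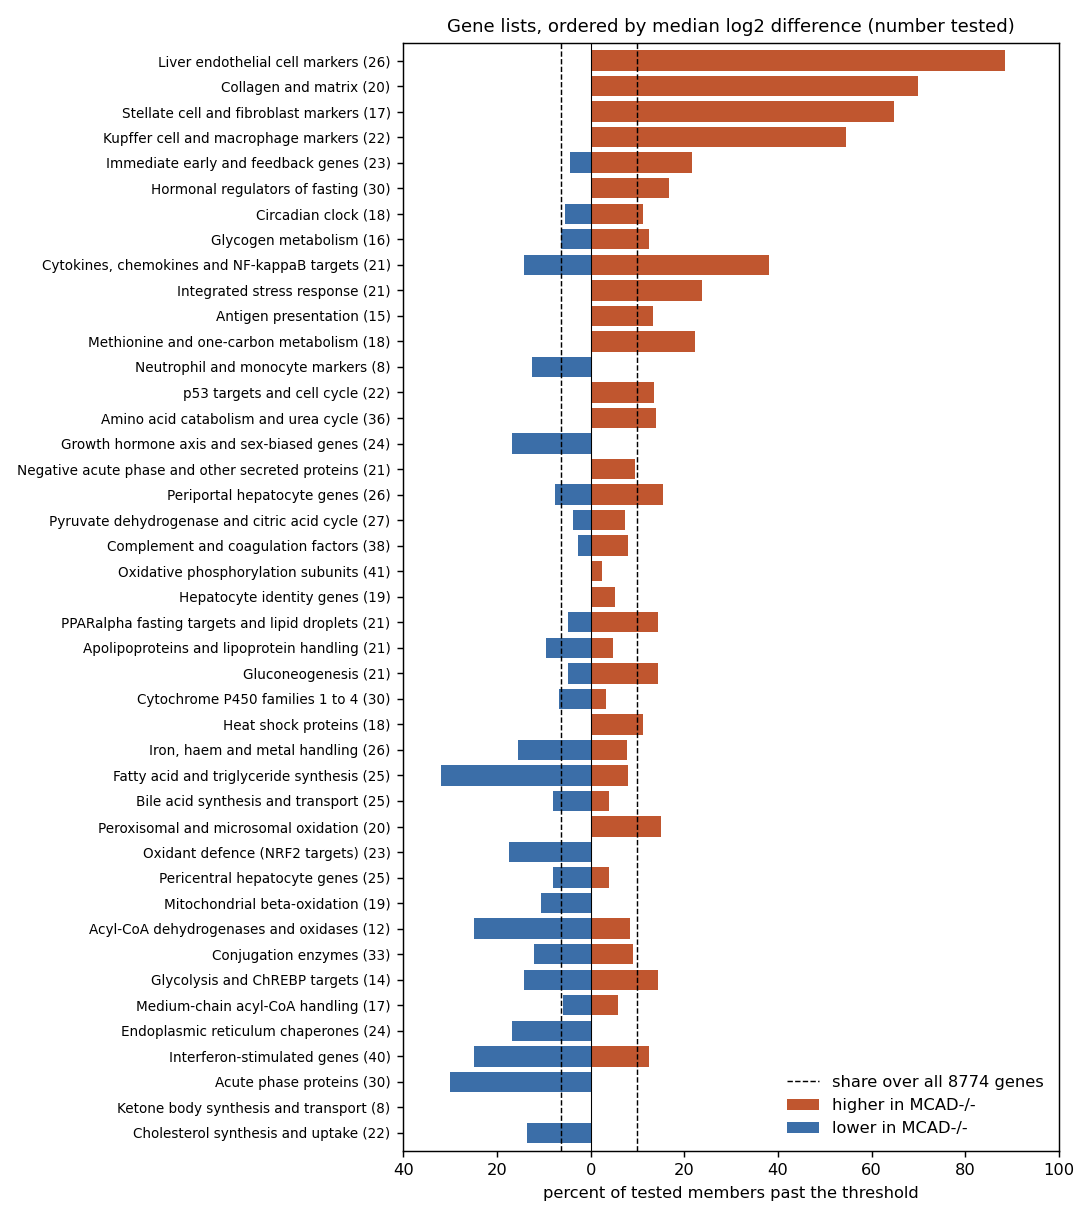
Percent of tested members of each gene list that passed, higher in MCAD-/- to the right and lower to the left, with the number tested in brackets and dashed lines at the shares of all 8774 genes (9.81% higher, 6.39% lower). The 4 lists of non-parenchymal cells and matrix stand far to the right, and fatty acid synthesis, acute phase, interferon and acyl-CoA dehydrogenase lists reach furthest to the left.

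Drug-metabolising enzymes had calls in single members. Of 30 cytochrome P450 genes of families 1 to 4, 1 was higher and 2 were lower. Cyp2b10, the marker of CAR activity, stood at 399.1, 101.1, 368, 150.3 and 203.5 units in wild type and at 9.437, 10.46, 6.744, 26.24 and 4.678 in MCAD-/-. All MCAD-/- mice were below all wild type mice and 4 of the 5 were under the floor, so the 22.3-fold fall depends on it (-4.48 ± 0.45, adjusted p = 4.41e-07). Cyp2c23 rose by 0.72 ± 0.16 (adjusted p = 0.00383) and Cyp2c38 fell by 1.24 ± 0.41 (adjusted p = 0.0415), the latter lost without any 1 of 7 mice (adjusted p up to 0.117). Cyp17a1, the steroid 17-hydroxylase, ranged from 342.2 to 963.7 units in wild type and from 33.99 to 133.1 in MCAD-/-, a 9.49-fold fall (-3.25 ± 0.37, adjusted p = 2.88e-06).

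Of 33 conjugation enzymes, 3 were higher and 4 were lower. Ugt2b38, a glucuronosyltransferase, was at least 7.88-fold higher (4.21 ± 0.39, adjusted p = 1.05e-07), though genes of that family resemble each other and probes may cross-react. Ugt3a1 and Ugt2a3 rose by 0.99 ± 0.29 and 0.38 ± 0.12 (adjusted p = 0.0257 and 0.0334). Sult1e1, the oestrogen sulphotransferase, fell from 67.1 to 12.8 units (-2.39 ± 0.43, adjusted p = 0.000535), and Gstm4, a glutathione transferase, fell 1.69-fold (-0.76 ± 0.18, adjusted p = 0.0065). Ugt2b35 and the sulphotransferase Sult5a1 fell by 0.58 ± 0.16 and 1.41 ± 0.44 (adjusted p = 0.0194 and 0.0351). The Ugt2b35 call was lost without wild type replicate 3 (adjusted p = 0.0529), and those of Ugt3a1, Ugt2a3 and Sult5a1 without any 1 of 5, 7 and 6 mice (adjusted p up to 0.0585, 0.0913 and 0.0931).

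Targets of NRF2, the regulator of oxidant defence, had 4 lower (17.4%, beside 6.39% of all genes) and no higher genes of 23, with a median of -0.09. Besides Me1, these were Txn1 (-0.30 ± 0.08, adjusted p = 0.0169), Txnrd1 (-0.36 ± 0.10, adjusted p = 0.0213) and Nfe2l2, which encodes NRF2 (-0.39 ± 0.13, adjusted p = 0.0372). The last calls are small: Txn1 was lost without MCAD-/- replicate 4 (adjusted p = 0.0511), Txnrd1 without wild type replicates 1 or 5 (up to 0.0681) and Nfe2l2 without any 1 of 7 mice (adjusted p up to 0.0919). Mt1 and Mt2, the metallothioneins, did not pass (-0.04 ± 0.12 and -0.25 ± 0.10, adjusted p = 0.855 and 0.115).

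Iron genes included a rise of the transferrin receptor. Tfrc was measured at 114.1, 104.1, 173.8, 110 and 102.7 units in wild type and 237.6, 267.2, 410.5, 253.1 and 258.7 in MCAD-/-, with replicate 3 the highest of each group, and rose 2.36-fold (1.24 ± 0.24, adjusted p = 0.0011). Hamp, which encodes hepcidin, the hormone that limits iron export, stood at 11502, 7261, 9931, 7624 and 9372 units in wild type and 6087, 2475, 94.64, 3116 and 6210 in MCAD-/-. No MCAD-/- mouse reached the wild type range, and replicate 3 was far below the other 4 (-2.21 ± 0.73, adjusted p = 0.0435). Without that mouse the difference was -1.12, and without any 1 of 7 others the call was lost (adjusted p up to 0.0772), as it was with the vehicle arrays fitted alone (adjusted p = 0.133).

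Slc30a10, a manganese exporter, fell from 57.8 to 10.5 units (-2.46 ± 0.38, adjusted p = 0.000143). Steap4, a metalloreductase, and Slc39a14, an iron and zinc importer, fell by 0.76 ± 0.24 and 0.47 ± 0.16 (adjusted p = 0.0329 and 0.0496), and Urod, of haem synthesis, rose by 0.33 ± 0.10 (adjusted p = 0.0378). Calls for Steap4, Slc39a14 and Urod were lost without any 1 of 7, 8 and 8 mice (adjusted p up to 0.0947, 0.127 and 0.0906). Over the 26 genes of the list, 2 were higher and 4 were lower.

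Genes of the growth hormone axis had 4 lower (16.7%, beside 6.39% of all genes) and no higher members of 24. With Sult1e1 these were Stat5a and Stat5b, which carry growth hormone signals (-0.73 ± 0.19 and -0.56 ± 0.17, adjusted p = 0.011 and 0.0285), and Trim24 (-0.70 ± 0.19, adjusted p = 0.017). Stat5a was near the floor, the Trim24 call was lost without wild type replicate 2 (adjusted p = 0.0504) and the Stat5b call without any 1 of 4 mice (adjusted p up to 0.084). In the circadian list, 2 of 18 were higher and 1 was lower. Noct, a rhythmic NADP phosphatase, rose from 410 to 841 units (1.04 ± 0.20, adjusted p = 0.00135) beside Per1, and the cell cycle kinase Wee1 fell by 0.70 ± 0.22 (adjusted p = 0.0318), a call lost without any 1 of 6 mice (adjusted p up to 0.0945). The labels do not give the time of day at killing.

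Immediate early and heat shock genes gave scattered calls. Of 23 immediate early and feedback genes, 5 were higher and 1 was lower. Klf2, which shear stress induces in endothelium, and Ier5 rose by 0.88 ± 0.22 and 0.62 ± 0.16 near the floor (adjusted p = 0.00822 and 0.0106). Rhob and Gadd45g rose by 0.40 ± 0.12 and 0.58 ± 0.18 (adjusted p = 0.0316 and 0.0325), each lost without any 1 of 6 mice (adjusted p up to 0.0843 and 0.099), and Gadd45b fell by 0.65 ± 0.16 (adjusted p = 0.00718). Cryab and Hspb1, small heat shock proteins and 2 of 18 in that list, were at least 1.12-fold and 2.07-fold higher (1.10 ± 0.23 and 1.53 ± 0.42, adjusted p = 0.00229 and 0.0168), and the Hspb1 call was lost without MCAD-/- replicates 3 or 4 (adjusted p up to 0.0549). Of 22 p53 targets and cell cycle genes, 3 were higher. Trp53inp1 rose 1.74-fold (0.80 ± 0.16, adjusted p = 0.00177), while Mcm6 and Mcm7, of the replicative helicase, rose by 0.55 ± 0.17 and 0.41 ± 0.14 (adjusted p = 0.0338 and 0.0458), lost without any 1 of 5 and of all 10 mice (adjusted p up to 0.0948 and 0.109).

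Genes that mark zones of the liver lobule were close to all genes, with a median of -0.09 over 25 pericentral genes and 0.05 over 26 periportal ones. Near the central vein, Nt5e, an ecto-nucleotidase, fell 3.55-fold (-1.83 ± 0.35, adjusted p = 0.00111), Slc13a3, a dicarboxylate transporter, fell 2.6-fold (-1.38 ± 0.26, adjusted p = 0.000886), and Tcf7l1 rose near the floor (0.88 ± 0.23, adjusted p = 0.0109). Of periportal genes, 4 were higher and 2 were lower. Etnppl, a phosphoethanolamine lyase, ranged from 540.7 to 1043 units in wild type and from 1227 to 3519 in MCAD-/- (1.60 ± 0.40, adjusted p = 0.00859, by 1 of its 2 probe sets, and 0.0762 with these averaged), and Aldh1b1, a mitochondrial aldehyde dehydrogenase, rose 2.04-fold (1.03 ± 0.20, adjusted p = 0.00127). The lower periportal genes were Apoa4 and Cyp17a1, and Fbp1 and Ass1 were the other higher ones.

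Acute phase proteins, the plasma proteins that the liver secretes in inflammation, were lower in 4 of the 5 MCAD-/- mice and not in replicate 5. Of 30 genes, 9 were lower and none was higher, with a median of -0.26. The mean log2 level of the list was 10.45 to 11.12 in wild type, 11.23 in MCAD-/- replicate 5 and 9.87 to 10.2 in the other 4. Saa4, a constitutive serum amyloid, ranged from 6599 to 7140 units in wild type and stood at 2157, 2734, 2693, 1970 and 5797 in MCAD-/-, a 2.4-fold fall with replicate 5 just under wild type (-1.27 ± 0.20, adjusted p = 0.000138). Lcn2, lipocalin 2, stood at 2330, 846.6, 727, 802.4 and 1428 units in wild type and 152.5, 180.2, 61.18, 122.1 and 2794 in MCAD-/-. Replicate 5 was the highest of all 10 mice and the other 4 the lowest (-2.30 ± 0.64, adjusted p = 0.0175).

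Saa1, the main inducible serum amyloid, showed the same split, with 19637 units in MCAD-/- replicate 5, 3411 to 9466 in the other 4 and 10688 to 17409 in wild type (-0.96 ± 0.30, adjusted p = 0.034). Il1r1, the interleukin 1 receptor, fell 2.09-fold (-1.06 ± 0.27, adjusted p = 0.0089), and Orm3, an orosomucoid, was at least 1.19-fold lower (-1.23 ± 0.30, adjusted p = 0.00741). With 1 mouse left out at a time, 13 members were lower without MCAD-/- replicate 5, 5 or 4 without wild type replicates 1 or 5 or MCAD-/- replicates 1, 2 or 3, and 3 without MCAD-/- replicate 4. Without MCAD-/- replicate 5 the Lcn2 difference was -3.21, its call was lost without MCAD-/- replicates 3 or 4 (adjusted p up to 0.0542), and the Saa1 call was lost without any 1 of 7 mice (adjusted p up to 0.0989). Both calls were lost with the vehicle arrays fitted alone (adjusted p = 0.0816 for Lcn2 and 0.118 for Saa1). Neutrophil markers moved with that mouse. S100a8 and S100a9, proteins of neutrophils, were at 83.51 and 95.01 units in MCAD-/- replicate 5 and at most 8.133 and 15.44 in the other 4, and neither passed between the genotypes (adjusted p = 0.967 and 0.906). The list of neutrophil and monocyte markers also names F10, a coagulation factor, so its sum does not measure these cells alone. The summed level of the 18 list members on the array was 3781 to 5665 units in wild type and 3331 to 6417 in MCAD-/-. Of the 8 such markers that were tested, 1 passed, Lcn2. Their part in the acute phase result was not tested.

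Other secreted proteins changed little. Of 21 negative acute phase and other secreted proteins, 2 were higher, Ces1c and Itih2 (0.33 ± 0.11 and 0.31 ± 0.10, adjusted p = 0.0378 and 0.0381), each lost without any 1 of 8 mice (adjusted p up to 0.105 and 0.0865). Of 38 complement and coagulation genes, 3 were higher and 1 was lower. Pros1, protein S, rose 1.62-fold (0.70 ± 0.12, adjusted p = 0.000412). Thbd, thrombomodulin, and Vwf, von Willebrand factor, both made by endothelium, rose near the floor (1.47 ± 0.32 and 0.96 ± 0.24, adjusted p = 0.00312 and 0.00825), and Mbl1, a mannose-binding lectin, fell by 0.39 ± 0.12 (adjusted p = 0.0319), a call lost without any 1 of 5 mice (adjusted p up to 0.104).

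Interferon-stimulated genes had more lower than higher calls, 10 against 5 of 40, with a median of -0.21, and the higher ones numbered 1 or 2 without any 1 of 7 mice. Igtp was measured at 334.7, 239.3, 245.3, 269.6 and 303.8 units in wild type and 89.47, 94.66, 85.21, 96.99 and 126.3 in MCAD-/-, a 2.83-fold fall without overlap (-1.50 ± 0.20, adjusted p = 1.84e-05). Parp9, which acts in interferon signalling, ranged from 505 to 557.6 and from 283 to 382.4 units (-0.77 ± 0.12, adjusted p = 0.00019), and its partner Parp14 fell 1.57-fold (-0.65 ± 0.17, adjusted p = 0.00968), a call lost with its probe sets averaged (adjusted p = 0.326). Xaf1 was at least 5.26-fold lower (-3.92 ± 0.17, adjusted p = 8.84e-13), but its 2 tested probe sets went opposite ways, so the direction for the gene is not settled.

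Of the 5 higher members, Oasl2, Oasl1 and Ifit2 averaged under the floor in both groups (1.06 ± 0.27, 0.85 ± 0.25 and 0.71 ± 0.24, adjusted p = 0.0105, 0.0216 and 0.0453), while the antiviral gene Rsad2 went from 34.4 to 60.4 units (0.81 ± 0.27, adjusted p = 0.0428). Calls for Oasl1, Rsad2 and Ifit2 were lost without any 1 of 2, 7 and 8 mice (adjusted p up to 0.0647, 0.127 and 0.119). AGTTTC was found in 19 of the 28 list members with a promoter in the table and in 2 of the 6 lower ones, Igtp and Irgm1. Of 15 antigen presentation genes, 2 were higher, H2-D1, a class I heavy chain (0.37 ± 0.09, adjusted p = 0.00505), and H2-M3, under the floor in both groups (1.01 ± 0.14, adjusted p = 4.4e-05).

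Cytokines, chemokines and NF-kappaB targets went both ways. Of 21, 8 were higher (38.1%, beside 9.81% of all genes) and 3 were lower (14.3%, beside 6.39%). The median was 0.21, and 5 were higher without wild type replicate 5 or MCAD-/- replicates 2 or 4. Vcam1, an adhesion molecule of endothelium and stellate cells, ranged from 43.33 to 104.7 units in wild type and from 145.9 to 235.9 in MCAD-/-, a 3.04-fold rise (1.61 ± 0.21, adjusted p = 1.82e-05). Icam1, its counterpart for other leukocyte integrins, and the chemokine Ccl6 rose 2.36-fold and 2.28-fold (1.24 ± 0.26 and 1.19 ± 0.29, adjusted p = 0.00251 and 0.00778). Cxcl13, a B cell chemokine, was at 3.485 to 6.2 units in wild type and at 184.2, 45.37, 74.76, 67.14 and 65.01 in MCAD-/-, at least 4.82-fold higher by both probe sets (4.03 ± 0.35, adjusted p = 4.94e-08). Ccl9 and Il18 fell 1.6-fold and 1.48-fold (-0.68 ± 0.14 and -0.57 ± 0.15, adjusted p = 0.00224 and 0.0153). Cxcl1, a neutrophil chemokine, varied widely, from 289.8 to 2577 units in wild type and from 71.68 to 862.4 in MCAD-/-, with replicate 5 the highest of the latter (-2.11 ± 0.57, adjusted p = 0.0155), a call lost with the vehicle arrays fitted alone (adjusted p = 0.0693).

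**Figure D4:**
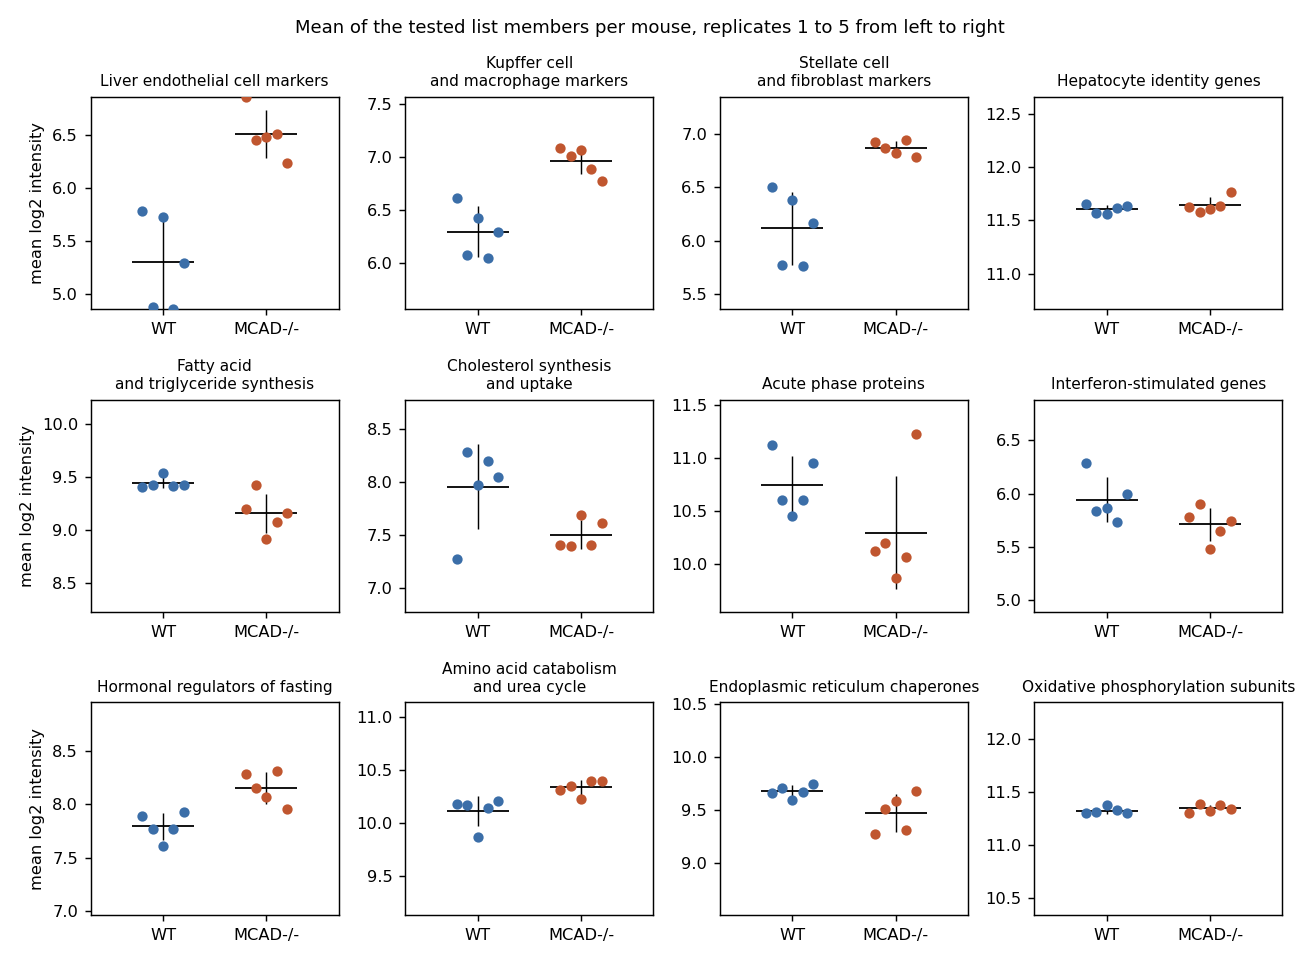
Mean log2 intensity of the tested members of 12 gene lists in each vehicle mouse, with group means (bars) and SD (vertical lines), each panel spanning the same log2 range. The endothelial means run from 4.86 to 5.78 in wild type and from 6.24 to 6.86 in MCAD-/-, while the acute phase mean of MCAD-/- replicate 5 reaches 11.23.

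Markers of the cells that line and support the sinusoids were higher in MCAD-/- as groups, and the endothelial list had the highest share of higher members among lists with at least 8 tested. Of 31 liver endothelial cell markers, 26 were tested. Of these, 23 were higher (88.5%, beside 9.81% of all genes) and none was lower, with a median of 1.19. Clec4g, which encodes a sinusoidal endothelial lectin, was measured at 261.4, 147.2, 228.1, 175.2 and 189.9 units in wild type and 895.4, 685, 846.3, 654.8 and 667.5 in MCAD-/-, a 3.78-fold rise (1.92 ± 0.24, adjusted p = 9.34e-06). Ehd3, an endocytic protein of the same cells, stood at 75.91, 47.69, 66.78, 35.14 and 57.91 and at 361.9, 255.7, 236.7, 219.6 and 221 units, a 4.64-fold rise (2.22 ± 0.22, adjusted p = 3.44e-07). Lyve1, the hyaluronan receptor, rose 3.63-fold (1.86 ± 0.32, adjusted p = 0.000424), and Gpr182, an endothelial receptor near the floor in wild type, rose from 14.6 to 33.8 units (1.21 ± 0.20, adjusted p = 0.000209).

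The summed level of the 31 endothelial markers on the array was 1234 to 2551 units in wild type against 3537 to 5469 in MCAD-/-, and the groups did not overlap. Over the 19 markers above 16 units in both groups, 17 were higher, with a median of 1.24. In bulk tissue, more cells of a type and more RNA per cell cannot be told apart. In the LPS mice, the median of the 26 tested endothelial markers was -0.17. Clec4g stood there at 14.6 and 14.2 units and Ehd3 at 26.4 and 21.3, and for both genes the difference between the contrasts passed (adjusted p = 0.00227 and 5.02e-05). Wild type replicates 1 and 3 had the higher levels of their group for Clec4g, Ehd3 and Lyve1.

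Kupffer cell and macrophage markers had 12 of 22 higher (54.5%, beside 9.81% of all genes) and none lower, with a median of 0.79. Vsig4, a complement receptor of Kupffer cells, ranged from 107.6 to 246.7 units in wild type and from 305 to 423.5 in MCAD-/- (1.28 ± 0.22, adjusted p = 0.000442). Cybb, of the phagocyte oxidase, Ctss, cathepsin S, and Mpeg1, perforin 2, rose 2.75-fold, 2.38-fold and 1.66-fold (adjusted p = 7.78e-05, 0.000165 and 0.0011). Clec4f and Cd5l, which define Kupffer cells in the mouse, did not pass, at 221.3 to 385.8 against 329.9 to 501.9 units for Clec4f and 134 to 276.8 against 173.1 to 315.5 for Cd5l. The summed level of the 28 list members on the array was 3223 to 4305 units in wild type and 4506 to 5707 in MCAD-/-. In the LPS mice the median of the 22 tested members was 0.22, with 2 higher and 1 lower.

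Stellate cell and fibroblast markers had 11 of 17 higher (64.7%, beside 9.81% of all genes) and none lower, with a median of 0.86. The summed level of the 25 such markers on the array was 2410 to 4181 units in wild type and 5046 to 5362 in MCAD-/-. Col3a1, a fibrillar collagen, stood at 101.1, 45.47, 76.93, 45.87 and 73.27 units in wild type and 162.8, 178.5, 115.4, 180.6 and 291.5 in MCAD-/-, a 2.72-fold rise (1.44 ± 0.28, adjusted p = 0.00106). Sparc, a matrix glycoprotein also made by endothelium, rose 2.67-fold (1.41 ± 0.23, adjusted p = 0.000166). Colec10, a stellate cell collectin, and Angptl6 rose 2.35-fold and 1.82-fold (1.24 ± 0.23 and 0.86 ± 0.14, adjusted p = 0.000942 and 0.000197). Of 20 collagen and matrix genes, some of them also on the stellate list, 14 were higher (70.0%) and none was lower, with a median of 0.91. Bgn, biglycan, Col4a2, a basement membrane collagen, and Timp2, a protease inhibitor, rose 1.98-fold, 2.33-fold and 1.89-fold (adjusted p = 0.000314, 0.000376 and 0.00052). Lrat, which stores vitamin A in stellate cells, ranged from 27.24 to 56.3 units in wild type and from 29.1 to 53.84 in MCAD-/- and did not pass. In the LPS mice the stellate list had a median of 0.20, with 1 higher and 2 lower. The matrix list had a median of 0.24 there, with 3 higher and 1 lower.

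Markers of other cells were mostly not measurable. Of 22 T and NK cell markers, 2 were tested, of 15 B cell markers 2, of 15 dendritic cell markers 3 and of 15 erythroid markers 2. Sdc1, which hepatocytes also express, rose 1.55-fold (0.63 ± 0.12, adjusted p = 0.000953), Igha, an antibody chain, went from 11.8 to 25.9 units (1.14 ± 0.22, adjusted p = 0.00103), and Irf8, of dendritic cells and macrophages, went from 11.1 to 26.7 (1.26 ± 0.23, adjusted p = 0.000678). Of 16 bile duct markers on the array, 4 were tested and 3 of these were higher, beside 9.81% of all genes. Among the 4 tested, 2 were above the floor in both groups, and these 2 were higher. With so few tested, the list as a whole was not assessed. Tff3, a secreted trefoil factor, was at least 6.93-fold higher (4.42 ± 0.31, adjusted p = 1.91e-09), Slc4a2, an anion exchanger, rose 1.53-fold (0.61 ± 0.17, adjusted p = 0.016), and Aqp1, a water channel shared with endothelium, rose 2.72-fold (1.44 ± 0.36, adjusted p = 0.00957).

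Most of the genes with the widest gaps were present in one genotype and near the floor in the other. Clec2h, a C-type lectin-related protein, was at 2.813 to 3.571 units in wild type and at 323.5, 184.4, 245.1, 386.8 and 58.13 in MCAD-/-, at least 12.6-fold higher by all 3 of its probe sets (5.97 ± 0.32, adjusted p = 2.64e-11). In the LPS mice Clec2h was under the floor in both genotypes. Rpgrip1, known from photoreceptor cilia, ranged from 4.187 to 7.96 units in wild type and from 165.7 to 212.5 in MCAD-/-, at least 11.6-fold higher (5.12 ± 0.19, adjusted p = 8.66e-14), with a difference of 5.07 in the LPS mice. Sdc4, a cell surface proteoglycan, and Efhd2, a calcium-binding protein, were well measured in both genotypes and rose 8.2-fold and 12.1-fold, each by 1 of 2 tested probe sets (3.03 ± 0.16 and 3.59 ± 0.19, adjusted p = 1.35e-11 and 2.19e-11).

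Other large rises started near or under the floor in wild type. Fam47e and Aff1, a subunit of a transcription elongation complex, rose 17.7-fold and 7.81-fold (4.15 ± 0.46 and 2.96 ± 0.18, adjusted p = 1.9e-06 and 2.26e-10). Slc15a2, a peptide transporter, rose 10.8-fold with wild type near the floor (3.43 ± 0.80, adjusted p = 0.00569). Tmem267, Cox6b2, A2ml1, Armcx4 and Dct were at least 6.33-fold, 5.43-fold, 5.55-fold, 4.14-fold and 1.8-fold higher, with all 5 wild type mice under 16 units. The differences in the LPS mice were 3.71, 2.38, 1.62, 0.95 and 2.84 for these 5 genes.

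Among the falls, Myom2, which encodes a sarcomere protein, was at 264.6, 292.7, 730.6, 365.5 and 280.9 units in wild type and at 2.514 to 3.586 in MCAD-/-, at least 22.3-fold lower by all 3 of its probe sets (-6.91 ± 0.39, adjusted p = 4.54e-11). Of 19 muscle, fat and pancreas markers it was 1 of 2 tested, and the rest were not over the floor on enough arrays. Gm7969 ranged from 152 to 200.1 units in wild type and from 3.233 to 4.41 in MCAD-/- (-5.51 ± 0.11, adjusted p = 1.39e-18), the smallest adjusted p of the comparison. Cap1, an actin regulator, ranged from 129.5 to 190 and from 3.812 to 7.492 units (-4.96 ± 0.19, adjusted p = 1.14e-13). Zfp874a, Abhd1, Lnx1, Rad51b, Aqp4, 1810053B23Rik and Lrit1 were at least 10.2-fold, 16-fold, 9.33-fold, 6.63-fold, 5.13-fold, 5.57-fold and 4.39-fold lower.

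A pair of genes split within the MCAD-/- group. Nlrp12, an innate immune regulator, was at a group level of 1674 units in wild type and at 3.456, 383.5, 785.7, 653.3 and 4.722 in MCAD-/- (-4.39 ± 1.22, adjusted p = 0.0175), so that replicates 1 and 5 lacked signal and the other 3 kept part of it. Without MCAD-/- replicates 1, 3, 4 or 5 in turn its difference was -3.26, -5.22, -5.15 and -3.37, and the call was lost without replicate 1 (adjusted p = 0.0548) and with the vehicle arrays fitted alone (adjusted p = 0.0619). Gm2788 had signal over the floor in MCAD-/- replicates 3 and 5 only (-4.85 ± 1.08, adjusted p = 0.00387). Without either of those its difference was -5.49 or -5.52, and without any 1 of the 10 mice the adjusted p was at most 0.0151.

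Of genes on no list, 20 with the smallest adjusted p were followed, of which 12 are given above. The other 8 were Rbm45, Wdr82 and 4833420G17Rik, which rose 5.16-fold, 4.07-fold and 6.31-fold, Ptprg, a receptor phosphatase that fell 5.52-fold, and Bcl7c, Mme, Fam107a and Trhde, at least 6.88-fold, 3.03-fold, 4.4-fold and 1.72-fold lower. Mme and Trhde encode peptidases, neprilysin and the enzyme that degrades thyrotropin-releasing hormone. In the LPS mice the differences were 2.88, 2.09 and 2.69 for the first 3 and -0.98, -0.46 and -0.07 for Mme, Fam107a and Trhde. Trhde was under the floor in both genotypes there.

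**Figure D5:**
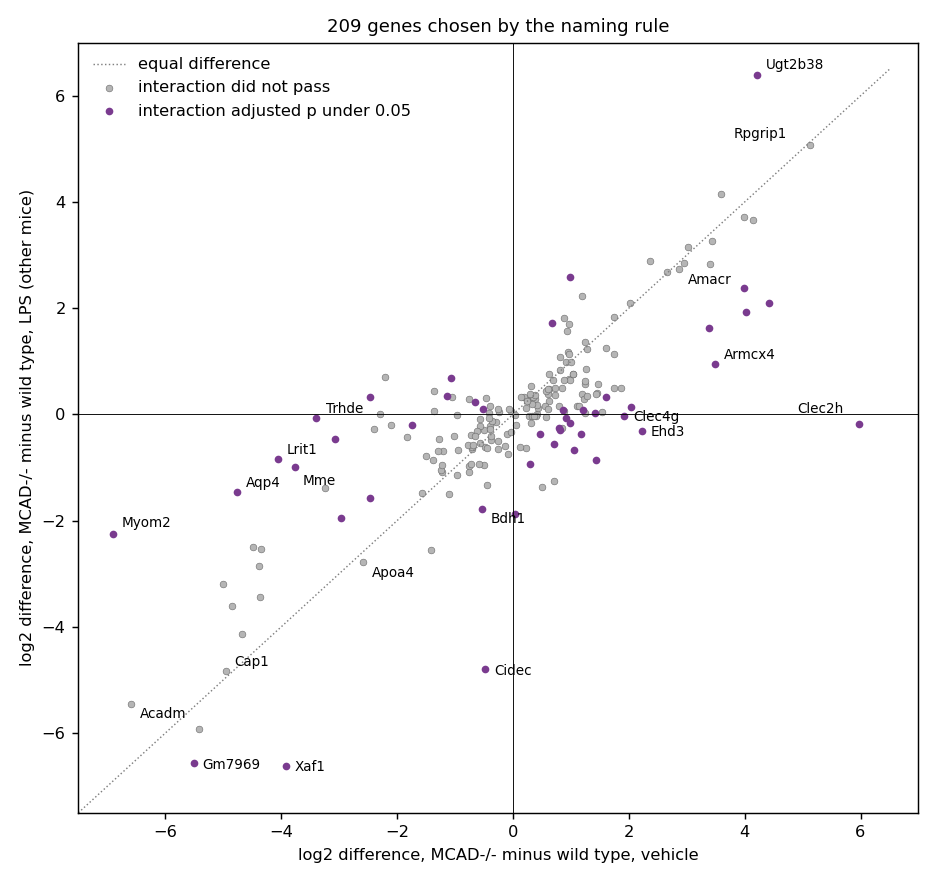
Difference between MCAD-/- and wild type (log2) with vehicle (horizontal axis) and in other mice with LPS (vertical axis) for the 209 genes chosen by the rule for naming genes, with purple points where the difference between the contrasts passed. Rpgrip1, Amacr, Apoa4 and Cap1 lie near the dotted line of equal differences, and Clec2h, Ehd3, Clec4g and Trhde lie near zero with LPS.

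Where a gene had several probe sets, they did not always go together. Of the 1422 genes that passed, 486 had more than 1 tested probe set. All of them passed in the same direction for 165, and for 19 some passed in opposite directions. For the other genes of this group at least 1 probe set did not pass.

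Genes beside Acadm on chromosome 3 were also counted. Of 18 tested genes within 10 places on either side, 3 were higher and 1 was lower, and over the chromosome 66 of 446 passed (14.8%, beside 16.2% of all genes). The higher neighbours were Adgrl4, an endothelial adhesion receptor (0.98), Ifi44l (1.62) and Cth (0.93), and the lower one was Adgrl2 (-0.38).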

How the data were processed

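Liver RNA of 20 mice was measured on Affymetrix arrays, 1 per mouse. The authors deposited 1 table of 45101 probe sets whose values are intensity on a linear scale, made with GCRMA per the submitters' processing notes, with version and settings not given in the sources used here. This method removes background, sets the arrays to 1 distribution and combines the probes of a set. A shift common to all transcripts is therefore lost, and dim values are drawn to a floor.

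Values were taken to log2. The platform's annotation gave 34945 probe sets 1 gene symbol, 932 several and 9160 none, and 64 controls were left out. Of those with 1 symbol, 34741 matched RefSeq (GRCm38.p6) and 0 changed. The probe set with the highest mean over the 20 arrays stood for each of 18193 genes, and genes over 16 units on at least 5 arrays were tested (8774). A limma 3.58.1 model (R 4.3.3) with the 4 groups gave every difference, standard error and adjusted p (two-sided, Benjamini-Hochberg over 8774 genes, threshold 0.05). The pipeline was tested on simulated data. The number of mice limits the precision, and p-values set each difference against a spread between mice estimated over all 4 groups.

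Genes named are Acadm, the 15 genes that rose most and the 15 that fell most, past the threshold and without overlap, up to 4 members of each list in each direction with the smallest adjusted p, a fixed panel of metabolic genes and the 20 genes on no list with the smallest adjusted p. Others, among them Sirt1, Clec4f, Cd5l, Lrat, Irgm1 and the genes beside Acadm, were named after their values were seen. The comparison, the gene lists and the tests were chosen with earlier results of these data known. Some genes of the panel are not analysed here. Lists are described by counts and medians, with no test of a list. Alternatives were a replicate block, no filter, a stricter filter (64 units), a filter on vehicle arrays, probe sets averaged per gene or tested singly, median centring, quantile normalization, array weights, a trended and robust prior, the vehicle arrays alone, a 1.5-fold minimum and each mouse left out.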

Additional observations from a re-analysis of the deposited data

Results flagged for a closer look

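Within the vehicle groups, 446 sets of 5 mice were examined for a mouse standing apart from the other 4, and 37 had one, where chance alone flags about 1 in 20. The values below are log2 levels of that mouse.

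In wild type, replicate 3 stood apart for 10 of them. It was low for Ppara (9.79), Fbp1 (12.65), Got1 (10.68), Per1 (4.06), Asns (3.35), Acads (8.02) and the mean of amino acid catabolism and urea cycle genes (9.87). The same mouse was high for Tfrc (7.44), Pklr (8.37) and the mean of fatty acid and triglyceride synthesis genes (9.54). It is also the mouse with the actin 3' to 5' log2 ratio of 3.18, and the part of RNA quality in these values was not tested. Wild type replicate 1 was low for Pygl (11.73), Idi1 (7.55), Msmo1 (8.45), Fgf21 (2.88) and Cyp7a1 (10.27) and high for Acaca (7.84), Urod (9.98) and Acadl (11.09). Wild type replicate 2 was low for Acadvl (11.35).

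In MCAD-/-, replicate 5 was high for Lcn2 (11.45), the mean of acute phase proteins (11.23), Steap4 (10.58), S100a8 (6.38) and Mt2 (12.98), all of them transcripts that inflammation is known to raise, and low for Cryab (3.75) and Trp53inp1 (9.55). Replicate 3 was high for Tfrc (8.68), Trim24 (8.13) and Bdh1 (10.75) and low for Hamp (6.56), Aff1 (6.90), Urod (9.92) and Aldh1b1 (5.99). Replicate 1 was high for Fabp4 (7.16) and low for Ier5 (3.56), and replicate 2 was high for Fam47e (8.83) and Pdhb (9.76).

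For 45 named genes the genotype difference with LPS was not the same as with vehicle, by the interaction term of the limma model (adjusted p under 0.05). The value given is the LPS difference minus the vehicle difference, on the log2 scale. Of the non-parenchymal and matrix genes, it was -2.52 for Ehd3, -2.30 for Aqp1, -1.95 for Clec4g, -1.39 for Sparc, -1.29 for Vcam1, -1.14 for Bgn, -1.12 for Gpr182, -0.99 for Timp2 and -0.78 for Angptl6, all of which rose with vehicle. Among metabolic genes it was -4.32 for Cidec, -1.92 for Fgf21, -1.89 for Fabp4, -1.54 for Ppargc1b, -1.23 for Bdh1, -1.22 for Gys2, -1.10 for Lpin2, -1.05 for Acot9 and -0.85 for Acaa1a. It was above zero for Acsl3 (1.55), Cyp51 (1.47), Dlat (1.04) and Pcx (0.62).

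Among inflammatory, stress, transport and conjugation genes it was -2.11 for Cxcl13, -1.73 for Oasl2, -1.27 for Ifit2, 2.78 for Slc30a10, 1.74 for Il1r1, 1.60 for Ugt3a1, 2.19 for Ugt2b38 and 0.88 for Gadd45b. For genes near the floor in one genotype it was -6.15 for Clec2h, -2.68 for Xaf1, -2.54 for Armcx4, -2.31 for Tff3, -1.77 for A2ml1, -1.60 for Cox6b2 and -1.06 for Gm7969. It was 4.66 for Myom2, 3.32 for Trhde, 3.29 for Aqp4, 3.22 for Lrit1, 2.78 for Mme, 2.61 for Fam107a, 1.02 for Bcl7c and 0.89 for Ptprg, all of which were lower in MCAD-/- with vehicle.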

How the results depend on the processing

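Of 209 named genes 179 passed. Of these, 127 kept direction and call in each of the 22 alternatives that tested them, the 1.5-fold minimum aside, while 52 lost the call at least once. A gene that an alternative's filter left out was not counted as lost there. The stricter filter tested 6119 genes and the filter on vehicle arrays 8015. Of the 30 that did not pass, 10 passed in at least 1 alternative: Pck1, Slc2a2, Pklr, Bdh1, Angptl4, Plin2, Srebf1, Igfbp1, Mt2 and Acadl. The 1 reversal was Ppara, -0.42 with the mean of probe sets (adjusted p = 0.102). The vehicle arrays fitted alone also ended the calls of Acad10, Phkg2, Pfkfb3, Ahcy, Txnrd1, Steap4, Slc39a14, Wee1, Gadd45g, Ern1 and Mbl1 (adjusted p 0.052 to 0.0886), and averaged probe sets those of Pfkfb3, Msmo1, Txnrd1, Nfe2l2, Urod, Mcm6, Mcm7 and Rsad2 (0.052 to 0.328), beside those given with the results. Acadm ran from -6.9 to -6.12 with 1 mouse left out. The cause of the changes below was not tested, except that the stricter filter tests fewer genes and the 1.5-fold minimum drops small changes by construction.

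Array weights gave 2855 genes in place of 1422, 1695 higher and 1160 lower, with 12 hormonal regulators higher, 9 amino acid genes higher, 8 interferon-stimulated genes higher, and 11 cholesterol, 12 chaperone and 17 acute phase genes lower. The stricter filter gave 532 higher genes, 13 endothelial, 6 stellate, 4 cytokine, 3 amino acid, 3 integrated stress response and 3 interferon-stimulated genes. The 1.5-fold minimum left 366 lower genes, 2 chaperones and 6 lower interferon-stimulated genes. The vehicle arrays alone gave 5 cholesterol and 3 acute phase genes lower, and the mean of probe sets 5 cytokine genes higher. Higher interferon-stimulated genes numbered 2 with the replicate block, no filter, the vehicle filter or each probe set and 3 with median centring or quantile normalization, in place of 5.

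With 1 mouse left out at a time, the hormonal list had 5 to 8 higher members, amino acid genes 3 to 6, one-carbon genes 2 to 4, higher interferon-stimulated genes 1 to 7, cytokine genes 5 to 7, lower cholesterol genes 1 to 7 and lower acute phase genes 3 to 13. Higher endothelial, Kupffer, stellate and matrix genes numbered 19 to 24, 9 to 12, 8 to 12 and 10 to 14, and lower fatty acid synthesis genes 8 to 10.

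Replicate numbers did not pair the mice: deviations of same-numbered mice correlated at 0.045, 0.047, -0.078, 0.036 and -0.046, none correlated best with its own number, and the block gave 1397 genes. Signal near the floor of 16 units limits 208 of the 1422 genes, of which 65 have no fold.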

Other observations

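Several gene families outside the lists were counted after their values were seen. Beside them, 16.2% of all tested genes passed, 9.81% higher and 6.39% lower. Cytosolic ribosomal proteins, mitochondrial ribosomal proteins, proteasome subunits and translation initiation factors, the housekeeping machinery of protein synthesis and turnover, had 2, 5, 1 and 2 genes past the threshold of 45, 76, 41 and 45, with medians of 0.05, 0.01, -0.02 and 0.09. Solute carriers, which move metabolites across membranes, had 20 higher and 20 lower of 172 (23.3% in all). Mitochondrial carriers of the Slc25 group had 4 higher and 1 lower of 32 (15.6%), near the share of all genes. Kruppel-like transcription factors had 4 of 10 higher and none lower, with a median of 0.44, tubulins 3 higher and 1 lower of 11, and integrins 4 of 11 higher. Adhesion G protein-coupled receptors, several of which endothelium and macrophages express, had 5 higher and 1 lower of 8, with a median of 0.92.

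Genes that differed between the genotypes both with vehicle and, in other mice, with LPS in the same direction were not spread evenly along the genome, in a count made after the values were seen. Over all 8763 placed genes the share was 6.45%. Chromosome 4 had 12.9% (70 of 544) and chromosome 9 had 10.1% (50 of 496), against 2.53% on chromosome X and 6.73% on chromosome 3, which carries Acadm. In windows of 20 neighbouring tested genes the median was 1 such gene, and 25 of 8378 windows held at least 8, among them overlapping windows on chromosome 4. The run from Fam76a to Stmn1 held 9 of 20. In it Cd52, Sh3bgrl3, Cep85, Zfp593 and Stmn1 were higher with vehicle (2.35, 1.97, 2.16, 1.81 and 1.72) and with LPS (0.92, 1.33, 1.71, 1.75 and 0.90), and Extl1 was lower with both (-2.72 with vehicle and -1.32 with LPS). The mice were of a mixed background, and alleles were not measured.

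A search for genes with a gap of over 4-fold between at least 2 mice on each side within a group found none in wild type and 3 in MCAD-/-, Nlrp12, Gm2788 and B830008H07Rik. In the last, MCAD-/- replicates 3 and 5 stood at 71.7 and 82.64 units and the other 3 between 12.68 and 16.14. The same 2 mice held the signal of Gm2788, at 75.52 and 82.68 units, where the other 3 were at 3.412 to 4.357.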
